A study of Drosophila melanogaster with 47 samples.

Results

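The 328 regions described here were bound, among 16 ChIP-seq peak lists of Drosophila melanogaster regulators, by cnc and by no other regulator. In ChIP-seq an antibody pulls a protein down together with the DNA it sits on, that DNA is sequenced, and a peak is a stretch where its reads exceed the background. Peaks of all 16 lists on the chromosome arms 2L, 2R, 3L, 3R, 4 and X were merged where they shared at least 1 bp, and the 328 were selected on the deposited peak calls, as regions holding peaks of the cnc list and of no other list. They were 328 of the 6511 merged regions and 328 of the 487 regions with a cnc peak (67.4%, 95% exact Clopper-Pearson interval 63.0 to 71.5). Each of the 328 held a single cnc peak. Over all merged regions, each counted once, 64.5% were held by 1 list. This is another measure than the 67.4%, which is a share of the regions of 1 given list. By that measure the 16 lists ranged from 4.07% (AbdB) to 67.4%, and cnc was the highest.

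The protein cnc (cap-n-collar) is a basic leucine zipper transcription factor, the fly relative of mammalian Nrf2. It pairs with a small Maf protein, maf-S, to bind antioxidant response elements, and Keap1 holds it in check until oxidants or electrophilic toxins release it. Its longest isoform, CncC, is known for inducing detoxification and antioxidant genes in the adult, and another isoform is known for patterning the embryonic head.

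The cnc list came from adult females precipitated with the antibody KW0-cnc of the White Lab, in 2 replicates with 1 input sample, which is chromatin sequenced without precipitation. The labels give no genotype, age or treatment for these flies. Whole females were the material as far as the labels say, so the tissue in which a region was bound is unknown. The other 15 lists came from larvae of stage W3L (Notch, Lola, Hr78 and AbdB, GFP-tagged and precipitated with anti-GFP), from embryos, from Kc167 cells (Su(H), dm, insv and h) and from S2 cells (CG8478). Both cell lines are established lines derived from embryos. The embryonic lists were GFP-tagged Stat92E at 0 to 12 h, GFP-tagged Hr78 at 8 to 16 h, br at 0 to 8 h, Cmi at 0 to 8 h in Exd-GFP embryos, and prd at 0 to 12 h with the antibodies RF12 and RF13. Notch is a receptor whose intracellular part enters the nucleus, Lola and br are zinc finger proteins, Hr78 is a nuclear receptor, AbdB a Hox protein, Stat92E the JAK-STAT factor, insv and h are repressors and prd is a pair-rule protein. No other list came from adults or used this antibody. Binding by cnc alone therefore means that no other regulator was called there in younger animals or cultured cells, and regulator, stage, tissue and antibody cannot be told apart.

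Each deposited list gave positions, a fold enrichment and a −log10 p for each peak, all of them the authors' values and all for a group as a whole, with no value per replicate. Read depth was unknown. The intervals below cover counting error only, and no test was made between sets of regions, because regions of 1 list are not replicates. Scores, folds and widths come from the same precipitation that chose the regions, so these values are a description. Positions are on build dm3. Genes and sequences at the regions were not analysed here.

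The strongest region bound by cnc alone was chr3R:21449735-21450478, the 4th of the 491 peaks of the list by rank. It was 744 bp wide, with a −log10 p of 21.6 and a fold of 4.61, and its summit lay 298 bp from its start. The nearest peak of another list, a br peak, lay 12687 bp away, so this region was both high and well apart. The next was chr2L:8692200-8693271, with a −log10 p of 18.3 and a fold of 4.50 over 1072 bp. Unlike the first, it had a close neighbour, a CG8478 peak at a gap of 287 bp. The 3rd, chr3R:7515533-7516746, had a −log10 p of 17.7 and the highest fold of all 328, 4.65, over 1214 bp. The 4th, chrX:16860389-16861201, had a −log10 p of 17.1 and a fold of 4.55. It lay 129 bp from a Cmi peak and was the one region of the 10 highest on X.

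The other 6 of the 10 highest regions had −log10 p between 14.6 and 16.1 and folds between 3.60 and 4.40. On 2R they were chr2R:8085664-8086360 and chr2R:5127021-5128148. On 3R they were chr3R:11373205-11374050, chr3R:7279949-7280948 and chr3R:12904698-12905336, and on 2L chr2L:7063477-7064578. None of these 6 came closer than 1008 bp to a peak of another list, and the region at chr3R:11373205-11374050 lay 10057 bp from the nearest one. By fold the highest 5 were all among the 10 highest by −log10 p, at 4.40 to 4.65. At the other end, the lowest region was chr3L:5758582-5758866, the last peak of the list, with a −log10 p of 4.66 and a fold of 2.03. Next by −log10 p came chrX:19216977-19217075, at 4.67 with a fold of 2.45. Several regions tied behind it, also at 4.67. Of these chr3L:17775722-17775858, chr4:900449-900636 and chrX:18120126-18120224 had a fold of 2.57, and others had a lower fold. Ties limited the ranking, and not only at the low end: 80 of the 328 shared both their fold and their −log10 p with another cnc peak. Of these, 5 all had a fold of 2.50 and a −log10 p of 4.67.

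Over the 328 regions the −log10 p had a median of 6.24 (quartiles 5.26 and 8.29), against 6.97 (5.79 and 9.20) in the 162 cnc peaks of the 159 regions that also held another list. This difference of −0.74 was −0.057 with the top-scoring 50% of each list and turned to 0.12 with the top-scoring 50% of the cnc list. Both of these settings choose cnc peaks by the −log10 p that is compared, so they cannot show how stable the difference is. Median fold was 2.57 in regions of cnc alone and 2.63 in shared ones, and median width 322.5 against 426.5 bp. The distributions overlapped over nearly all of their range, as the plot of width against score shows. Summits lay near the middle of the peak in both sets, at a median of 47.4% of the width in regions of cnc alone and 52.5% in shared ones. Among the 328, higher peaks were also the wider ones (Spearman rho 0.68 between width and −log10 p, a description over peaks of 1 list). The widest were chr2L:9789496-9791170 (1675 bp), chr3R:12903093-12904598 (1506 bp), chrX:8007312-8008782 (1471 bp), chr3R:8256474-8257855 (1382 bp) and chr3R:7515533-7516746 (1214 bp). Of these the X region had a −log10 p of 6.84 and a fold of 2.19 only, whereas the other 4 had −log10 p of 12.0 or more. The narrowest region was 70 bp wide, chr3L:13875974-13876043.

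**Figure D1:**
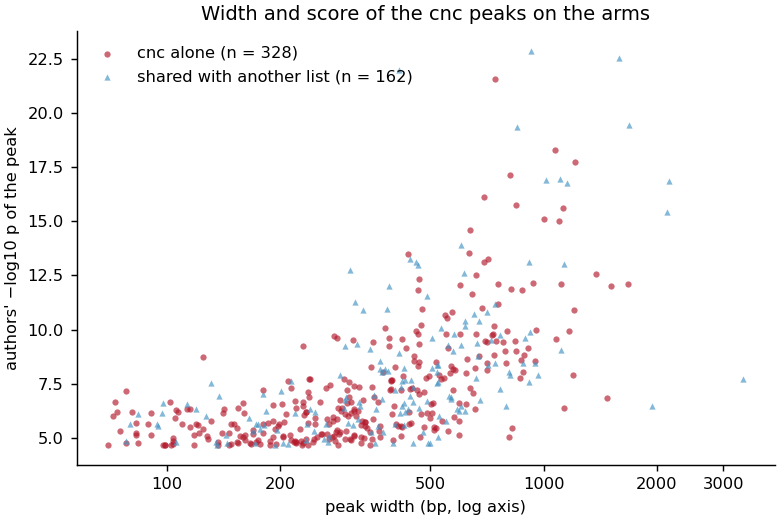
Each point is a cnc peak on the arms, in a region of cnc alone (circles, 328) or in a region with another list (triangles, 162), by peak width in bp on a log axis and by the authors' −log10 p. The sets overlap over most of their range, and the 3 highest peaks of the list are shared ones.

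Regions of cnc alone were found at every level of the list and were not confined to its weak end. They made up 4 of the 10 highest cnc peaks, 10 of the 20 highest and 60 of the 100 highest, and 80 of the 100 lowest. By quintile of −log10 p, from the highest to the lowest, the share of cnc alone was 61.2% (50.8 to 70.9), 60.2%, 60.2%, 73.5% and 79.6% (70.3 to 87.1), each of 98 peaks. By quintile of fold it lay between 63.3% and 71.4%, with no step at the low end. Among peaks with a −log10 p at or above the list median of 6.54, the share of cnc alone was 59.2% of 191 peaks at or above the median width of 364 bp and 66.7% of 54 narrower ones. Among lower peaks it was 58.2% of 55 wide and 77.4% of 190 narrow ones (70.8 to 83.1), the highest of the 4 shares.

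**Figure D2:**
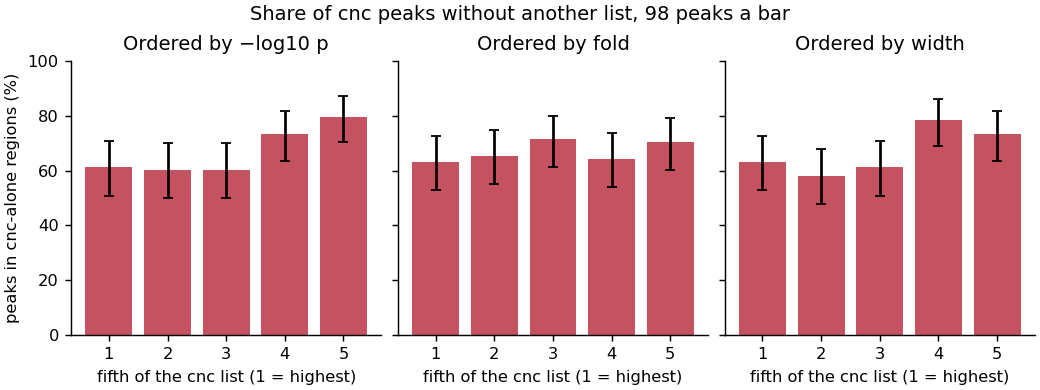
Bars give the percentage of cnc peaks in regions of cnc alone, in quintiles of 98 peaks ordered from the highest (1) to the lowest (5) by the authors' −log10 p, by the authors' fold and by width; lines are 95% Clopper-Pearson intervals. The share is 61.2% in the highest and 79.6% in the lowest quintile by −log10 p.

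The 328 regions lay on all 6 arms, 79 on 3R, 67 on 2R, 63 on 3L, 63 on X, 55 on 2L and 1 on 4. Per Mb between the outermost peaks of all lists this was 2.40 on 2L to 3.18 on 2R, with 0.819 on arm 4. The share on X was 19.2% (15.1 to 23.9), against 21.4% (15.3 to 28.6) of the shared cnc regions and 21.0% of the 6024 regions without cnc. Over all merged regions 20.9% were on X, so the share of cnc alone was near the background. The single region on arm 4, chr4:900449-900636, was 188 bp wide with a −log10 p of 4.67. Regions without cnc were on arm 4 in 1.43% of cases (1.14 to 1.76), and those of cnc alone in 0.305% (0.00772 to 1.69). A share this low was not particular to cnc. Arm 4 held 0.220% of the regions of Su(H) alone and 0.257% of those of Cmi alone. It held 1.09% of those of CG8478 alone and 2.33% of those of Notch alone.

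Regions of cnc alone on X stood lower in the list by median than the shared cnc peaks on X and than the autosomal regions of cnc alone as a whole. Their median −log10 p was 6.06 (quartiles 5.25 and 6.86, highest 17.1, n = 63), against 6.40 (quartiles 5.27 and 8.66) in the 265 autosomal regions of cnc alone. In shared peaks the order was the other way, 7.65 on X (n = 36) against 6.94 on the autosomes (n = 126). On X 19 of the 63 regions of cnc alone reached the list median (30.2%, 19.2 to 43.0), against 130 of 265 on the autosomes (49.1%, 42.9 to 55.2). Counted the other way round, X held 12.8% (7.86 to 19.2) of the 149 regions of cnc alone in the upper 50% of the list and 24.6% (18.5 to 31.6) of the 179 in the lower 50%. Shared peaks had 22.9% and 21.2% on X in the same parts. Median fold in regions of cnc alone was 2.60 on X and 2.57 on the autosomes, and median width was 272 bp on X and 336 bp on the autosomes. Arm 3L stood beside X, with a median −log10 p of 5.85 and 21 of 63 regions of cnc alone at or above the list median (33.3%, 22.0 to 46.3). The other 3 long arms had 50.6% to 56.7% there. Among regions held by Notch, Su(H), Cmi or CG8478 alone, X took 19.5%, 24.4%, 16.4% and 27.8% in the upper 50% of their own list and 22.2%, 20.3%, 17.5% and 21.3% in the lower 50%. The splits of scores by arm and of X by upper and lower 50% were not among the planned results.

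**Figure D3:**
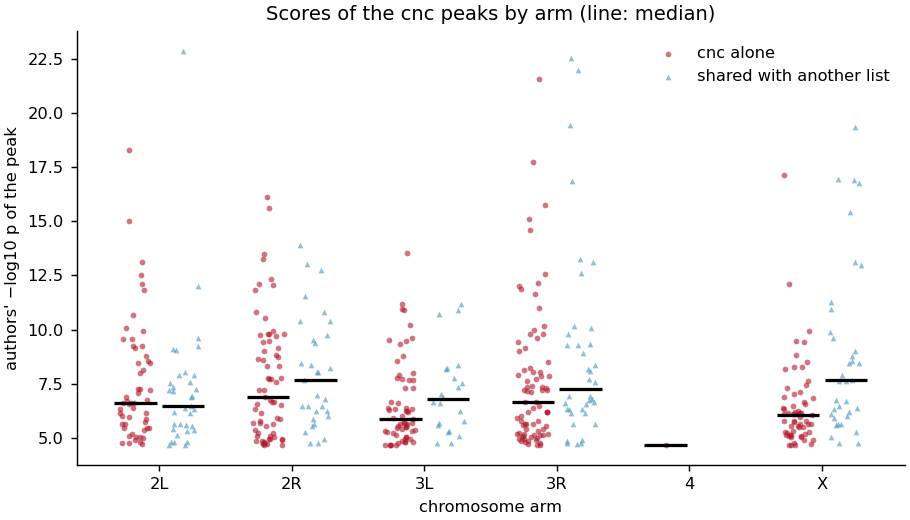
Each point is a cnc peak, by chromosome arm and by the authors' −log10 p, in regions of cnc alone (circles, left) and in regions with another list (triangles, right); black lines are medians. On X the median is 6.06 for cnc alone and 7.65 for shared peaks.

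Along the arms the regions of cnc alone were spread from tip to base. With each of the 5 long arms divided into deciles of its span, the 4th decile from the tip held 58 of 327 regions (17.7%, 13.8 to 22.3). It held 8.18% (4.43 to 13.6) of the shared cnc regions and 11.7% (10.9 to 12.6) of the regions without cnc, which was the highest decile there too. It was also the highest decile of Su(H) alone, with 132 of 906 regions (14.6%, 12.3 to 17.0). Of CG8478 alone it held 11.0%, of Cmi alone 11.7% and of Notch alone 10.9% (8.82 to 13.3). The 58 came from all 5 arms, 17 from 3L, 12 from 2L, 11 each from 2R and 3R, and 7 from X. The decile was chosen after its value was seen. The other 9 deciles held between 7.03% and 13.1% of the regions of cnc alone, and the decile nearest the base held 7.95%, against 6.75% of the regions without cnc.

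Most regions of cnc alone had another regulator within 5 kb, in a share near that of all regions of 1 list, but fewer had one within 500 bp. The gap to the nearest peak of another list was 33 bp at the shortest, 3662 bp at the median (quartiles 1028 and 9704) and 63564 bp at the longest. Within 5 kb, 189 of 328 had such a neighbour (57.6%, 52.1 to 63.0), against 56.3% of all 4197 regions of 1 list. For regions held by Notch, Su(H), Cmi or CG8478 alone this share was 46.5%, 60.6%, 63.0% and 59.6%. Within 500 bp, 42 regions of cnc alone had a peak of another list (12.8%, 9.39 to 16.9), against 19.6% of all regions of 1 list. The shares for Notch, Su(H), Cmi and CG8478 alone were 17.7%, 23.9%, 18.1% and 19.9%. A region of 5 or more regulators lay within 5 kb of 19 regions of cnc alone (5.79%, 3.52 to 8.90), against 6.93% of all regions of 1 list.

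**Figure D4:**
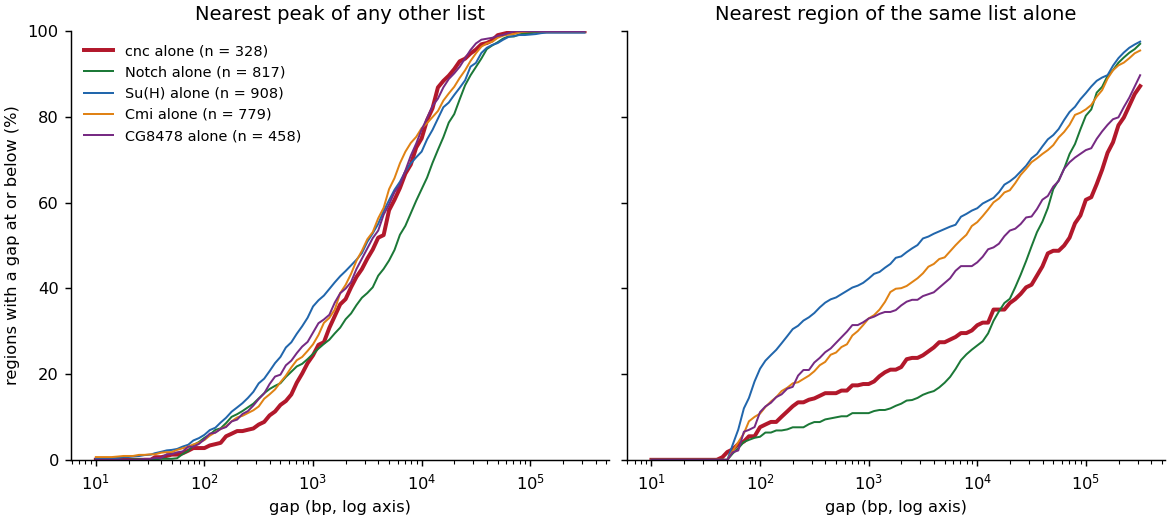
Lines give the percentage of regions, held by cnc, Notch, Su(H), Cmi or CG8478 alone, whose gap in bp (log axis) to the nearest peak of any other list (left) or to the nearest region of the same list alone (right) is at or below the value on the axis. On the left the cnc line (red) runs among the others at 5000 bp, at 57.6%, and below them at 500 bp, at 12.8%.

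The nearest neighbour was most often a Notch peak (98 regions, 29.9%) or a Su(H) peak (73 regions, 22.3%), and these are also the longest lists, with 20.4% and 16.8% of all peaks outside the cnc list. Cmi was nearest for 35 regions (10.7% against 14.0%), CG8478 for 32 (9.76% against 11.1%), larval Hr78 for 17 (5.18% against 10.4%) and br for 17 (5.18% against 3.07%). Counted for each list on its own, a Notch peak lay within 5 kb of 85 regions of cnc alone (25.9%, 21.3 to 31.0) and a Su(H) peak within 5 kb of 79 (24.1%, 19.6 to 29.1). By this count larval Hr78 stood level with CG8478, each with 51 regions (15.5%), and near Cmi, with 52 (15.9%). A br peak lay within 5 kb of 19 (5.79%). At the regions that cnc did share, the order was another. There Su(H), the DNA-binding partner of Notch, was present in 74 of 159 (46.5%), Notch in 57 (35.8%), CG8478 in 48 (30.2%) and Cmi, which belongs to a coactivator complex that methylates histones, in 38 (23.9%). Of the 6024 regions without cnc, each of which holds at least 1 of these lists by construction, Su(H) was in 28.9%, Notch in 38.6%, CG8478 in 19.6% and Cmi in 25.8%. The intervals of the shared cnc regions were 38.6 to 54.6 for Su(H), 23.2 to 38.0 for CG8478, 28.4 to 43.8 for Notch and 17.5 to 31.3 for Cmi. Most regions without cnc held 1 list only, whereas many shared cnc regions held several others. This bears on the share of every list, and its part in these values was not tested. In 82 of the 159 a single other list was present, which was Su(H) in 26, Notch in 18 and Cmi in 15. The Myc protein dm was in none of the 159, but its list had only 61 peaks on the arms. A count of 0 leaves room for a share of 1.89% (the limit of 3 counts). Of the regions without cnc, dm was in 1.01%, which is below this limit, so the 0 does not set the shared regions apart.

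The limit of 1 bp separated few regions narrowly. Just inside it, the regions nearest to another list were chr2R:10769578-10769660, 33 bp from a Su(H) peak, chr3R:13527518-13527908, 35 bp from CG8478, and chr2R:6046888-6047350, 41 bp from Lola. They were followed by chr2L:13514428-13514665 and chr2R:14288748-14288906, 49 and 61 bp from Su(H) peaks. Just outside it, the cnc peak at chr2L:10003661-10003841 shared 1 bp with a br peak and chr3R:23114514-23114723 shared 7 bp with Notch. The peak at chr2R:3421412-3422086 shared 8 bp with larval Hr78, chrX:2186911-2187484 shared 24 bp with Su(H) and chrX:3613073-3613385 shared 35 bp with larval Hr78. In all, 10 of the 162 shared cnc peaks had 50 bp or less in common with the list they overlapped most, and the median was 199 bp. Gaps of up to 100 bp were found at 9 of the 328 regions.

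The share of regions on X was given by distance to another list, without a test, and this split was not planned. Of the 80 regions within 1 kb of another list 22 were on X (27.5%, 18.1 to 38.6). Of the 166 at more than 1 kb and up to 10 kb 32 were (19.3%, 13.6 to 26.1). Farther away, 9 of 82 were on X (11.0%, 5.14 to 19.8). These intervals overlapped, which does not show that the shares are alike. X also had the most regions without cnc per Mb of the 5 long arms, 57.0 against 41.0 to 55.2, and the part of this density in these shares was not tested. The height of the cnc peak varied little with this distance. Median −log10 p was 6.25 within 1 kb, 6.34 at more than 1 kb and up to 10 kb, and 6.14 beyond 10 kb, and median fold was 2.59, 2.55 and 2.59. The most remote regions were chrX:651411-651624, 63564 bp from a Cmi peak, chr3L:12882536-12882765, 56735 bp from Su(H), and chr3R:18893053-18893327, 53537 bp from embryonic Hr78. These 3, chosen after their values were seen, had −log10 p of 4.91, 6.64 and 5.03. Taking the cnc list too, 68 of the 328 regions (20.7%, 16.5 to 25.5) had no peak of any list within 10 kb.

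Some regions of cnc alone stood close together. Of the 322 gaps between successive ones on an arm, 27 were of 500 bp or less and 4 of 501 to 1000 bp, while 195 were longer than 100000 bp and the median was 177608 bp. A further 27 gaps were longer than 1000 bp and up to 10000 bp. Thus 58 regions had another region of cnc alone within 1 kb (17.7%, 13.7 to 22.3), against 24.9% of all regions of 1 list, and 103 had one within 10 kb (31.4%, 26.4 to 36.7), against 38.8%. The share within 10 kb was 16.5% with a gap of up to 500 bp allowed, which joins neighbours, 12.8% with the top-scoring 50% of each list and 11.4% with that of the cnc list. The sets differ in size, which bears on such gaps. For Notch alone, with 817 regions, the shares were 10.9% (8.84 to 13.2) within 1 kb and 26.7% (23.7 to 29.9) within 10 kb. For Su(H) alone, with 908 regions, they were 42.3% and 58.7%, for Cmi alone 33.0% and 55.5%, and for CG8478 alone, with 458, 33.0% and 46.1%. Beside a shared cnc region, 15 regions of cnc alone lay within 1 kb (4.57%) and 40 within 10 kb (12.2%).

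At gaps of up to 1 kb there were 24 pairs, 2 groups of 3 and 1 group of 4. The pairs spanned 364 to 2244 bp, with a median of 746 bp, and the ratio of the higher to the lower fold was 1.11 at the median and 1.60 at most. The highest pair was chr3R:12903093-12905336, made of a 1506 bp and a 639 bp peak with 99 bp between them and −log10 p of 12.0 and 14.6. The most unequal was chr2R:14288041-14288906, with −log10 p of 13.5 and 5.05. Peaks so grouped were narrower and lower than the other 270, with a median width of 278.5 against 331 bp and a median −log10 p of 5.85 against 6.35. The shortest gap between 2 regions of cnc alone was 45 bp. The lists do not say how the authors' caller joined neighbouring peaks, and how far a pair is 1 bound stretch split in 2 was not tested.

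At gaps of up to 10 kb, 8 runs held 3 or more regions of cnc alone, 29 regions in all. The longest was chr2L:8689927-8702216, 12290 bp with 6 such regions covering 37.8% of it. Its folds were between 2.56 and 4.50, and it held the second highest region of all. In it a 7th cnc peak, at chr2L:8691617-8691884 with a fold of 2.35, overlapped a CG8478 and a Su(H) peak. That shared peak was the lowest of the 7 cnc peaks. The densest run was chr3L:3943094-3945562, where 4 regions covered 84.7% of 2469 bp. All 4 had nearly equal height, with folds of 2.27 to 2.39 and −log10 p of 5.50 to 6.40, and the nearest peak of another list, of Notch, was 11820 bp away.

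Of the other 6 runs, 4 were on X, which held 19.2% of the 328 regions. Runs were not counted for the other lists, and these are too few to compare arms. The run chrX:20914328-20917929 had 4 regions with folds of 2.51 to 2.67 and a Cmi peak between them. The run chrX:3339986-3342463 had 3 regions, with folds of 2.34 to 3.30, and chrX:8003792-8009109 had 3, with folds of 2.19 to 2.39. Neither held a peak of another list, the nearest being 704 bp (CG8478) and 629 bp (Notch) away. The run chrX:13733416-13739175 had 3 narrow regions, covering 9.24% of its 5760 bp, and a shared cnc peak 884 bp wide with a fold of 2.76 on a Notch peak. On 2R, chr2R:14288041-14293327 held 3 regions with folds of 2.32 to 3.71 and 2 Su(H) peaks, and on 3R, chr3R:10555754-10563214 held 3 with folds of 2.46 to 2.73 and 3 Su(H) peaks. Other lists were thus present inside 5 of the 8 runs and absent from 3.

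**Figure D5:**
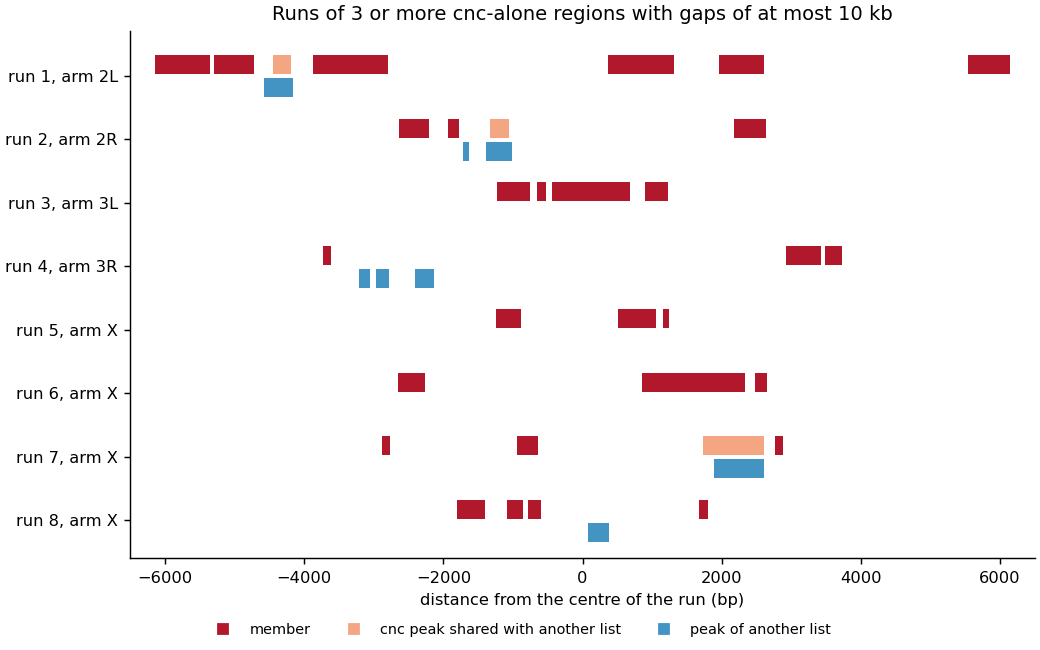
Each row is a run of 3 or more regions of cnc alone (dark red) with gaps of at most 10 kb, drawn to scale by distance in bp from its centre, with cnc peaks shared with another list (light) and, below the row, peaks of other lists (blue). In run 3 (3L) 4 regions cover 84.7% of the run, and in run 1 (2L) 6 regions flank 1 shared peak.

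The share of regions without any other list was 67.4% (63.0 to 71.5) for cnc. It was 61.3% (55.9 to 66.4) for prd with RF12 and 59.9% (54.7 to 65.1) for br. The intervals overlapped, which does not show that the shares are alike. Since prd and Hr78 have a pair of lists each, the shares were also counted by regulator, a choice made after the values were seen. Regions of prd alone were then 283 of 473 (59.8%, 55.3 to 64.3), and regions of Hr78 alone 156 of 1309 (11.9%). The shares of Su(H), Cmi, CG8478 and Notch, with longer lists, were 50.1%, 48.9%, 37.3% and 34.3%. AbdB, also with a longer list, had the lowest share, 4.07%. Lists shorter than that of cnc had both high and low shares. Among them were prd with RF12 and br, given above. The others had 55.5% (prd with RF13), 50.8% (dm), 30.9% (Lola), 26.0% (Stat92E), 19.8% (h) and 16.0% (insv). Leaving out single lists moved the number of regions of cnc alone little. It was 361 without Su(H), 349 without Notch, 343 without Cmi and between 328 and 333 without any 1 of the other 12. With all 6 anti-GFP lists left out it was 368. A 491st cnc peak lay outside the arms, on XHet, with a fold of 2.51 and a −log10 p of 5.42.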

How the data were processed

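Peak lists of 16 ChIP groups (35 immunoprecipitated and 12 input samples) were read as deposited. Per the submitters' processing notes, CASAVA 1.7.0, BWA, MACS2 and build dm3 were used; their order, settings, thresholds and controls, and whether replicates were pooled, are not stated there or in the labels. Each list deposited by the authors holds a fold enrichment (linear ratio), a −log10 p, a score that is the whole part of 10 times the −log10 p, and a summit offset in bp. Read depth is unknown. The labels do not say whether replicates are separate animals or cultures.

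Of 12745 peaks, 12462 on the arms were merged at 1 bp overlap, and positions were written 1-based. Gaps count the bases between 2 intervals. Shares have 95% Clopper-Pearson intervals, and no p-value was computed. Merging and gaps were checked on simulated intervals and against bedtools. The members and lists were chosen with earlier results of these data known. Named regions are the 10 highest by −log10 p, the 5 highest by fold, the 5 widest, the 5 lowest, the 5 on either side of the overlap limit, runs of 3 or more with gaps of at most 10 kb, and those on arm 4. Ties among the lowest were taken by fold, higher first, and then by position. Sequence motifs and gene lists were planned but not run, as no dm3 genome was used here. Alternatives changed the overlap, peak width, score threshold, lists and sequences kept. Python 3.11.15, numpy 2.4.6, pandas 2.3.3, scipy 1.17.1 and matplotlib 3.10.9 were used.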

Additional observations from a re-analysis of the deposited data

How the results depend on the processing

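Of 117 recalculated values, 102 stayed near the reported ones: within the interval of a share, within 1.5 times a count, or within 0.265 of the difference in median −log10 p. Leaving out any 1 of the other 15 lists moved none beyond that. Such omissions made up 15 of the 23 or 24 alternatives of each result. For the number of regions this outcome was fixed in advance. Leaving lists out can only raise it, at most to the 490 cnc peaks on the arms, which is within 1.5 times 328. Its 15 values, and the one without the anti-GFP lists, therefore do not show that the number is stable. All of the 14 values that moved and the 1 that changed sign came from the remaining alternatives. The number of regions of cnc alone ranged from 261 (gap of up to 500 bp allowed) to 368 (anti-GFP lists left out) while all cnc peaks were used. It was 187 with the top-scoring 50% of each list and 149 with that of the cnc list alone, which have fewer peaks. The difference in median −log10 p, regions of cnc alone minus shared ones, was −0.74. It was −0.43 with peaks of 400 bp, −0.057 with the top-scoring 50% of each list and turned to 0.12 with the top-scoring 50% of the cnc list. The last 2 settings choose cnc peaks by the −log10 p that is compared, so they cannot show how stable the difference is. The share on X was 12.8% in the top-scoring 50% of the cnc list, and the cause was not tested. The share within 5 kb of another list was 49.8% with a gap of 500 bp allowed, 36.9% with the top-scoring 50% of each list, 44.6% without the anti-GFP lists, and 24.4% within 1 kb. The share with another region of cnc alone within 10 kb was 16.5% with a gap of 500 bp allowed, which joins neighbours, 23.2% with peaks of 400 bp, 12.8% with the top-scoring 50% of each list, 11.4% with that of the cnc list, and 48.8% within 50 kb. No paired analysis was possible because each group has 1 list without values per replicate; for the same reason no replicate could be left out. The motif alternatives were not run, since no dm3 genome was used here. Unknown read depth limits every absence of a peak: a regulator not called at a region may have bound it below the threshold of its list.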
